A study of Chromochloris zofingiensis with 6 samples.

Results

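The 8 genes described here are annotated as carrying nitrate and nitrite into and through the cells of *Chromochloris zofingiensis*, a unicellular freshwater green alga, or as reducing them to ammonium. They were taken by gene identifier, by what their annotation names: nitrate reductase (NR), nitrite reductase (NIR), the nitrate transporters NRT2.1 and NRT2.2, the accessory protein NAR2, a gene listed as NRT1.2 with a question mark, and the nitrite transporters NAR1.1 and NAR1.2. The names are those of the study's own gene tables, and the rule that picks them uses no measured value, though the set was proposed with earlier results of these data known. Not every gene annotated for these steps is in the set: NRT1.1? (Cz12g26020), Cz08g30200 and Cz12g08100 lie outside it and are described further below. All 8 were listed in every library and all 8 were among the 13886 genes tested, out of 15037 genes listed in at least 1 library.

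Nitrate enters algal cells mainly through high-affinity transporters of the NRT2 family, which in the green alga Chlamydomonas work together with a small membrane partner, NAR2. In the cytosol nitrate reductase turns nitrate into nitrite, nitrite crosses the chloroplast envelope, for which Chlamydomonas uses NAR1 proteins, and nitrite reductase in the chloroplast makes ammonium with electrons from ferredoxin. Glutamine synthetase and glutamate synthase then build the ammonium into amino acids. In Chlamydomonas the pathway genes are switched on by nitrate through NIT2, a transcription factor of the RWP-RK family, and are kept low by ammonium.

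Poly-A RNA was sequenced from cultures of strain ATCC30412 grown in bubbled columns under continuous light with CO2-enriched air, which held for every library. The 6 h group was 3 cultures collected 6 h after washed cells went into fresh Kuhl medium with 200 mM NaCl, and the 0 h group was 3 cultures collected at 0 h of that treatment, with 1 library per culture and the cultures described as biological replicates. No 6 h culture without salt was analysed here, so salt, fresh medium, handling and time cannot be told apart. Nitrate, nitrite and ammonium were not measured in these files, and no protein or enzyme activity was either.

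Expression is given as FPKM, the fragments assigned to a gene model relative to its length and to all mapped fragments of the library, so levels of different genes are per length and can be set side by side within a library. The study reports similar totals of clean reads for all libraries, but the number of reads behind a single value is unknown. The RNA content of a cell is not part of these relative values. Fold changes are log2 of 6 h over 0 h on FPKM scaled between libraries plus 0.1, tested with limma and adjusted over all genes tested by the Benjamini-Hochberg method. Means and ratios of means are of deposited FPKM, so they can differ from these log2 changes. A gene was called higher or lower where its adjusted p was under 0.05 and its log2 change at least 1 in size. The 3 libraries at 6 h differed among themselves more than those at 0 h: the residual SD over all genes was 0.541, 0.289 and 0.630 log2 units in 6 h replicates 1, 2 and 3, against 0.165 to 0.195 at 0 h.

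Of the 8 genes, 5 were called higher at 6 h, 2 were called lower, and NRT2.1 was not called. The 5 higher genes were both reductases, NRT2.2, NAR2 and NAR1.1, with 6.03-fold to 23.3-fold higher mean FPKM, and the 2 lower genes were NRT1.2? and NAR1.2. Over all genes tested, 20% were called higher and 26.6% lower (2772 and 3692 genes, or 1925 and 4466 with FPKM left unscaled). In 5 of the 8 genes all 3 deposited FPKM at 6 h lay above all 3 at 0 h, which held for 27.2% of all genes, and in the other 3 they lay below, which held for 46.1% of all genes. The median log2 change was 3.29 over the 8 genes and -0.04 over all genes tested. Together the 8 genes held 0.470%, 0.515% and 0.560% of the summed FPKM of the 6 h libraries, against 0.0600%, 0.0592% and 0.0599% at 0 h.

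**Figure D1:**
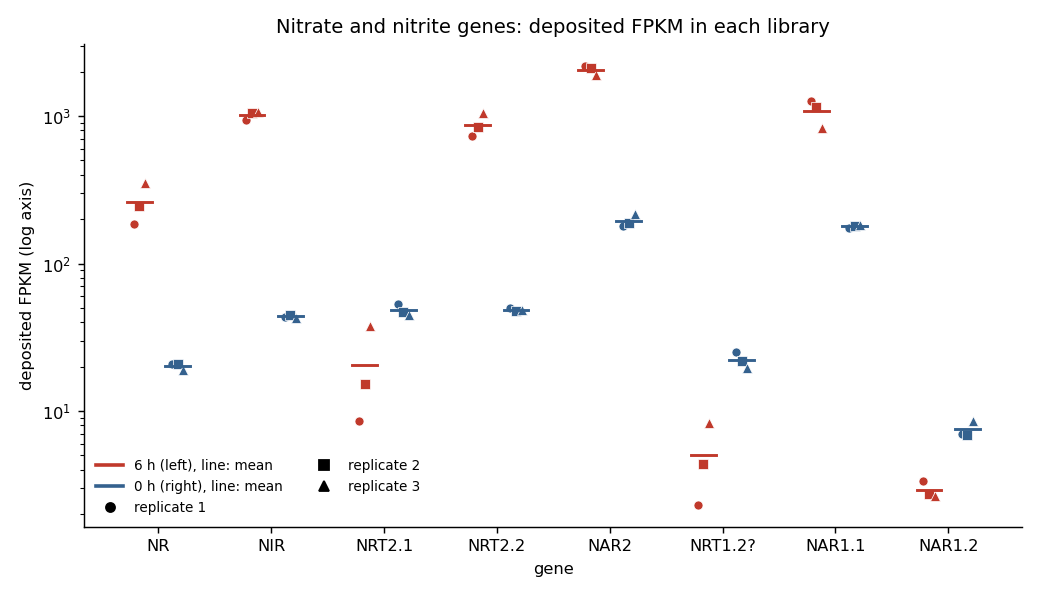
Deposited FPKM of the 8 genes in each library on a log axis, with the 3 cultures at 6 h (red, left) and the 3 at 0 h (blue, right) of each gene, marker shape for the replicate and a line at the mean. NR, NIR, NRT2.2, NAR2 and NAR1.1 sit higher at 6 h with no overlap, NRT1.2? and NAR1.2 sit lower, and NRT2.1 at 6 h spreads from 8.61 to 37.95 FPKM below its values at 0 h.

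NIR (Cz12g08110.t1), the chloroplast enzyme that reduces nitrite to ammonium, showed the highest fold change of the 8 genes. It had 943.3, 1055 and 1065 FPKM at 6 h, against 43.6, 45.0 and 43.0 FPKM at 0 h. The 3 cultures at each time were close to each other, with an SD of 67.5 at 6 h and 1.004 at 0 h around means of 1021 and 43.9 FPKM. The mean deposited FPKM was 23.3-fold higher at 6 h. The log2 change on scaled values was 4.84 (SE 0.10, 95% interval 4.61 to 5.07, limma adjusted p = 6.29e-06). Among all genes of a library ordered by FPKM, NIR stood at place 202, 150 and 101 at 6 h, against 4482, 4339 and 4640 at 0 h.

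NR (Cz14g14210.t1), the enzyme of the first reduction step, was also called higher but stayed below NIR at both times. It had 186.0, 245.3 and 354.1 FPKM at 6 h, against 20.9, 20.7 and 18.9 FPKM at 0 h. The 6 h cultures were spread over a coefficient of variation of 32.6%, against 5.46% at 0 h, with replicate 3 the highest, and no value at 6 h came near those at 0 h. The mean deposited FPKM was 12.97-fold higher at 6 h (261.8 ± 85.3 against 20.2 ± 1.102 FPKM, SD, n = 3 each). The log2 change on scaled values was 3.95 (SE 0.23, 95% interval 3.39 to 4.50, limma adjusted p = 3.12e-05). The gene moved to place 957, 693 and 413 among all genes of the 6 h libraries, against 8825, 8903 and 9316 at 0 h.

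Since FPKM are per length, NR and NIR were compared as the ratio of NR to NIR within each library, which does not depend on scaling between libraries. The ratio was 0.197, 0.233 and 0.332 at 6 h, against 0.479, 0.460 and 0.440 at 0 h. All 3 ratios at 6 h were lower than all 3 at 0 h, so NIR gained more than NR in every culture. The log2 difference was -0.89, with an exact two-sided permutation p of 0.1, the smallest that 3 against 3 libraries can give, and an adjusted p of 0.1 over the 6 ratios compared. This ratio leaves out Cz12g08100, the gene next to NIR, which is described with the neighbouring genes. That gene is annotated as a ferredoxin-nitrite reductase and had 53.7 to 62.9 FPKM at 0 h, more than NIR. It changed by 2.32 log2 units, less than NR at 3.95 and NIR at 4.84. The lower ratio at 6 h is therefore a result for this NIR model alone. It need not hold with both genes counted, and the balance of the reduction steps with both was not tested.

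NRT2.2 (Cz08g30210.t1), a transporter of the high-affinity nitrate family, was called higher at 6 h. It had 736.1, 841.0 and 1045 FPKM at 6 h, against 49.7, 47.3 and 48.2 FPKM at 0 h. Every 6 h culture stood far above the 0 h cultures, which lay within an SD of 1.195 FPKM. The mean deposited FPKM was 18.1-fold higher at 6 h (874.0 ± 157.0 against 48.4 ± 1.195 FPKM, SD, n = 3 each). For scaled values the log2 change of NRT2.2 was 4.47 (SE 0.14, 95% interval 4.12 to 4.81, limma adjusted p = 8.04e-06). Its place in the library was 258, 205 and 104 at 6 h, against 3839, 4061 and 4065 at 0 h.

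NRT2.1 (Cz06g16220.t1), the other gene of the NRT2 family, did not move with NRT2.2. It had 8.61, 15.3 and 38.0 FPKM at 6 h, against 53.6, 47.1 and 45.0 FPKM at 0 h. All 3 deposited values at 6 h were lower than those at 0 h, but replicate 3 was close to the 0 h level, and after scaling between libraries the times overlapped. The mean FPKM was 20.6 ± 15.4 at 6 h, against 48.5 ± 4.46 at 0 h (SD, n = 3 each). The log2 change was -1.19 (SE 0.50, 95% interval -2.42 to 0.04, limma adjusted p = 0.0773), and the gene was not called. The call turned on 1 library and on the scaling: without 6 h replicate 3 NRT2.1 was called lower at -1.75 (limma adjusted p = 5.32e-04), and with FPKM left unscaled it was called lower at -1.50 (limma adjusted p = 0.0400). Over all 17 alternatives the change ran from -1.75 to -0.71 and the adjusted p from 7.15e-07 to 0.791. The lowest of these p came from a fit with library weights, whose estimation did not converge fully.

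At 0 h both NRT2 genes were at about the same level, with NRT2.2 at 0.928, 1.01 and 1.07 times the FPKM of NRT2.1. At 6 h NRT2.2 was at 85.5, 55.1 and 27.5 times NRT2.1. The ratio was thus higher in every 6 h library than in any 0 h library, also in replicate 3, where NRT2.1 itself lay near its 0 h level. The log2 difference of this ratio was 5.65 (exact two-sided permutation p = 0.1, the smallest possible here, adjusted p = 0.1), and it ran from 5.28 to 6.09 over its alternatives.

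The summed FPKM of the pair was 744.7, 856.2 and 1083 at 6 h, against 103.2, 94.4 and 93.2 at 0 h, a 9.23-fold higher mean at 6 h and a log2 difference of 3.50 on scaled values (exact two-sided permutation p = 0.1, adjusted p = 0.1 over the 2 sums compared). NRT2.1 made up 1.16%, 1.78% and 3.50% of that sum at 6 h, against 51.9%, 49.9% and 48.3% at 0 h. The sum of these 2 genes was therefore split about evenly at 0 h and came almost entirely from NRT2.2 at 6 h. It leaves out Cz08g30200, the gene next to NRT2.2, which is described with the neighbouring genes.

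NAR2 (Cz16g07340.t1), which is listed as the partner protein of nitrate transport, had the highest level of the 8 genes in every library. It had 2188, 2111 and 1905 FPKM at 6 h, against 179.1, 189.3 and 218.3 FPKM at 0 h. The cultures agreed within a coefficient of variation of 7.08% at 6 h and 10.4% at 0 h, and the times did not overlap. The mean deposited FPKM was 10.6-fold higher at 6 h (2068 ± 146.5 against 195.6 ± 20.3 FPKM, SD, n = 3 each). On scaled values NAR2 had a log2 change of 3.71 (SE 0.13, 95% interval 3.39 to 4.04, limma adjusted p = 9.86e-06). At 6 h it stood at place 58, 43 and 43 among all genes of the library, against 708, 666 and 563 at 0 h. The study's gene tables do not give this gene 1 name: the automatic annotation lists a manganese-dependent diphosphatase, and the list of nitrogen genes lists NAR2.

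NRT2.2 was at 0.336, 0.398 and 0.549 times the FPKM of NAR2 at 6 h, against 0.277, 0.2499 and 0.221 times at 0 h. NRT2.1 was at 0.00394, 0.00723 and 0.0199 times NAR2 at 6 h, against 0.299, 0.249 and 0.206 times at 0 h. The log2 difference between the times was thus 0.75 for NRT2.2 over NAR2 and -4.90 for NRT2.1 over NAR2 (each exact two-sided permutation p = 0.1, adjusted p = 0.1). NR was at 0.253, 0.292 and 0.339 times NRT2.2 at 6 h, against 0.421, 0.438 and 0.393 times at 0 h, a log2 difference of -0.52 with the same p. In these ratios, too, no library at 6 h overlapped with those at 0 h.

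**Figure D2:**
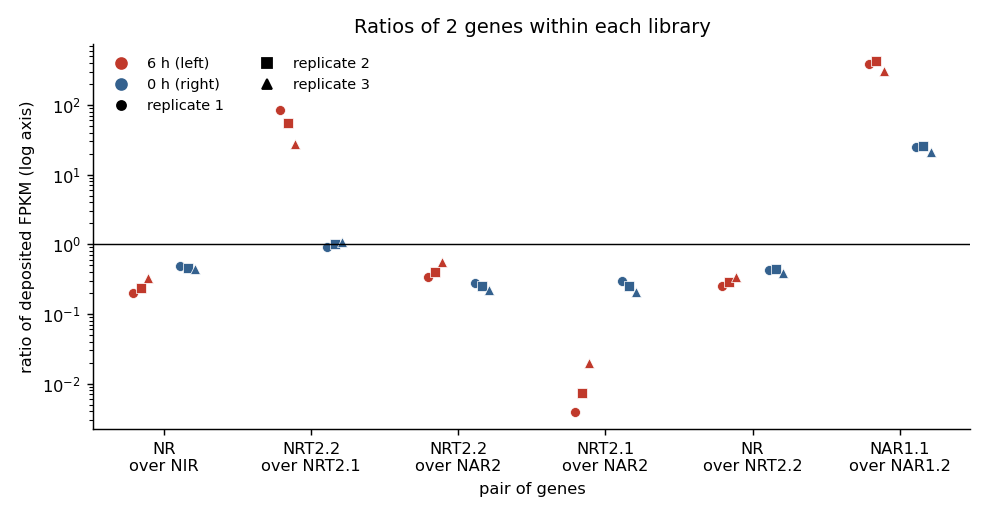
Ratio of the deposited FPKM of 2 genes within each library on a log axis, with the 3 libraries at 6 h (red, left) and the 3 at 0 h (blue, right) of each pair and marker shape for the replicate. The ratio of NRT2.2 to NRT2.1 was near 1 at 0 h and between 27.5 and 85.5 at 6 h, and NR stayed below NIR at both times. The neighbouring genes Cz08g30200 and Cz12g08100 are not part of these ratios.

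NRT1.2? (Cz11g12230.t1) belongs by its annotation to the NRT1 family, whose members in plants carry nitrate, peptides or other small molecules, and the question mark is that of the study. It had 2.31, 4.38 and 8.33 FPKM at 6 h, against 25.0, 22.0 and 19.5 FPKM at 0 h. The 6 h cultures differed among themselves with a coefficient of variation of 61.1%, yet each was lower than every 0 h culture. The mean deposited FPKM was 4.43-fold higher at 0 h. With a log2 change of -2.0 on scaled values (SE 0.44, 95% interval -3.07 to -0.93, limma adjusted p = 0.00764), the gene was called lower. When the test itself asked for a log2 change above 1 in size (limma treat), the adjusted p was 0.103, the highest over the alternatives. The lowest was 7.90e-08, again from the fit with library weights.

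The other NRT1 gene of the study's list, NRT1.1? (Cz12g26020.t1), was not called. It had 11.1, 17.4 and 27.6 FPKM at 6 h, against 19.1, 20.01 and 18.8 FPKM at 0 h. The 6 h values lay on both sides of the 0 h values, and the log2 change was 0.16 (limma adjusted p = 0.661).

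NAR1.1 (Cz02g42030.t1) is listed as a chloroplast nitrite transporter close to NAR1.2 of Chlamydomonas, a chloroplast envelope protein of the formate/nitrite transporter family that is also known there as LCIA and linked to bicarbonate. The study also names the gene LCIA in its list of carbon-concentrating genes, so the values stand for both names. It had 1272, 1147 and 826.7 FPKM at 6 h, against 175.5, 179.5 and 183.7 FPKM at 0 h. Every culture at 6 h was far above the 0 h cultures, with replicate 3 the lowest. The mean deposited FPKM was 6.03-fold higher at 6 h (1082 ± 229.7 against 179.6 ± 4.14 FPKM, SD, n = 3 each). Scaled values gave a log2 change of 2.88 (SE 0.19, 95% interval 2.42 to 3.33, limma adjusted p = 4.67e-05).

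NAR1.2 (Cz07g31160.t1), listed as close to NAR1.4 of Chlamydomonas, was the gene of lowest level of the 8 at 0 h, and at 6 h it was lowest in replicates 2 and 3. It had 3.33, 2.73 and 2.66 FPKM at 6 h, against 7.0, 6.92 and 8.60 FPKM at 0 h. The times did not overlap, and the log2 change of -1.04 (SE 0.19, 95% interval -1.50 to -0.57, limma adjusted p = 0.00369) was just past the limit of 1. How near it lay to the limit depended on the scaling. It was -1.34 with FPKM left unscaled, -1.47 with TPM made from the FPKM and -1.34 with upper-quartile scaling. The call was lost at -0.95 without 0 h replicate 3, at -0.99 without 6 h replicate 2, at -0.96 without 6 h replicate 3 and at -0.87 with a pseudocount of 1. When the test asked for a change above 1 (limma treat) the adjusted p was 0.896, the highest over the alternatives. The lowest was 1.17e-06, from the fit with library weights. NAR1.1 was at 382.0, 420.2 and 310.8 times the FPKM of NAR1.2 at 6 h, against 25.1, 25.9 and 21.4 times at 0 h (log2 difference 3.91, exact two-sided permutation p = 0.1, adjusted p = 0.1). The summed FPKM of both was 5.80-fold higher at 6 h (1085 ± 230.0 against 187.1 ± 4.97, SD, n = 3 each). The log2 difference of the sum on scaled values was 2.82 (exact two-sided permutation p = 0.1, adjusted p = 0.1).

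The order of the genes by level changed between the times. By mean FPKM it was NAR2, NAR1.1, NIR, NRT2.2, NR, NRT2.1, NRT1.2? and NAR1.2 at 6 h, against NAR2, NAR1.1, NRT2.1, NRT2.2, NIR, NRT1.2?, NR and NAR1.2 at 0 h. At 6 h the ranges of NAR1.1, NIR and NRT2.2 overlapped, as did those of NRT1.2? and NAR1.2. Within each 6 h library, however, NIR was above NRT2.2. At 0 h the range of NRT2.1 overlapped with NRT2.2, that of NAR2 with NAR1.1, and that of NRT1.2? with NR. Within each 0 h library, however, NAR2 was above NAR1.1 and NRT1.2? above NR. The other overlapping pairs changed their order between libraries of the same time.

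Replicate 2 lay between the other 6 h cultures in all 8 genes. Against the 0 h mean on scaled values, NR changed by 3.54, 3.89 and 4.42 log2 units in replicates 1, 2 and 3, and NRT2.2 by 4.26, 4.41 and 4.73. NRT1.2? changed by -2.87, -2.02 and -1.10, and NRT2.1 by -2.14, -1.37 and -0.05. NAR1.1 took the reverse order with 3.16, 2.97 and 2.50, as did NAR2 with 3.83, 3.73 and 3.58. In 5 of the 8 genes replicate 1 was lowest and replicate 3 highest, and in 3 it was the reverse, against 33.1% and 39.9% of all genes tested. What set the cultures apart was not tested.

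**Figure D3:**
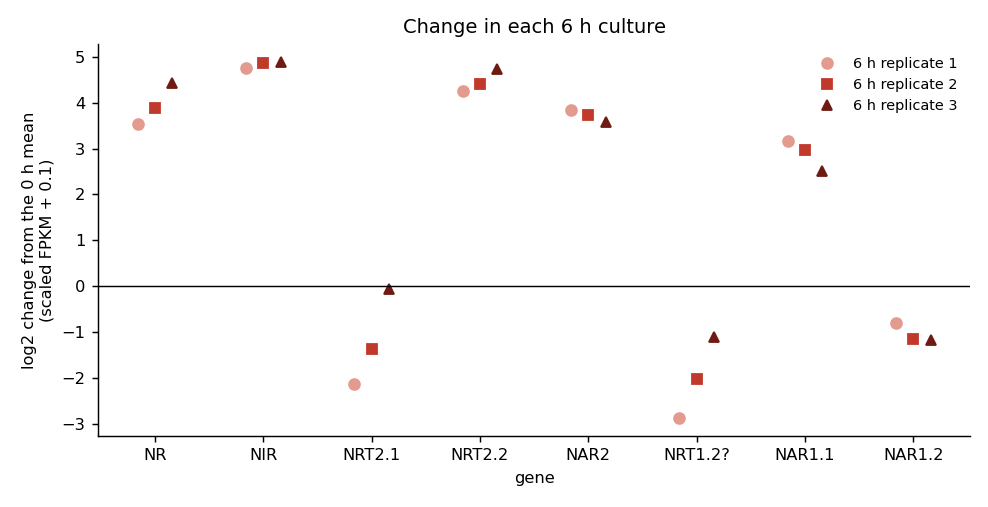
Log2 change of each gene in each of the 3 cultures at 6 h from the mean of the 3 cultures at 0 h, on scaled FPKM plus 0.1, with colour and marker for the replicate. The 3 points of NIR lie within 4.76 to 4.89, and those of NRT2.1 spread from -2.14 to -0.05.

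The study's section on nitrogen transport and assimilation holds 19 genes, of which the 8 above are a part. Of the other 11 genes, 5 were called higher, 3 lower and 3 were not called, against 20% higher and 26.6% lower over all genes tested. Their median log2 change was 0.69, beside 3.29 for the 8 genes and -0.04 for all genes tested. Urea use was represented by the transporter DUR3 (Cz06g20100) and by DUR1 (Cz07g16190) and DUR2 (Cz04g38290), which split urea in steps, and all 3 were called higher, at 1.94, 1.13 and 1.71 log2 units (limma adjusted p = 0.00305, 3.56e-04 and 6.56e-04). With FPKM left unscaled 3 of the 11 were called higher, and the call of DUR1 was among those lost, at 0.82.

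The 6 ammonium transporters of that section went in different directions, with 2 called higher, 3 called lower and 1 not called. The shares over all genes tested were 20% higher and 26.6% lower. The AMT gene Cz10g24140 had 504.8 ± 29.8 FPKM at 6 h, against 123.1 ± 9.25 at 0 h (SD, n = 3 each), a log2 change of 2.34 (limma adjusted p = 1.56e-05). The Rh-type gene Cz01g09120 had 0.197 ± 0.0153 FPKM at 6 h, against 21.7 ± 0.876 at 0 h (SD, n = 3 each), a change of -5.94. The AMT genes Cz12g21220 and Cz10g23010 were called lower at -5.55 and -4.15 (limma adjusted p = 3.80e-04 and 6.49e-05). All 3 are close to 0 at 6 h, and the size of their change depends on the 0.1 added: with a pseudocount of 1 it was -4.06 for Cz01g09120, -3.26 for Cz12g21220 and -2.41 for Cz10g23010. The AMT gene Cz13g12260 was called higher at 1.41 (limma adjusted p = 0.0399), a call that was lost when any library other than 6 h replicate 1 was left out, at 0.88 to 1.48. It was also lost with FPKM left unscaled, at 1.11 (limma adjusted p = 0.0886).

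The study's list of glutamate and glutamine metabolism holds the enzymes that follow nitrite reduction, and also glutamate dehydrogenases and glutamate decarboxylases. Of its 10 genes, 2 were called higher, 3 lower and 5 were not called, with a median log2 change of -0.31. These counts are near the shares over all genes tested, 20% called higher and 26.6% lower. Of the 3 glutamine synthetases, the enzymes that bind ammonium to glutamate, 1 was called higher: Cz14g20030 had 138.0 ± 32.2 FPKM at 6 h, against 76.4 ± 3.18 at 0 h (SD, n = 3 each), at a log2 change of 1.13 (limma adjusted p = 0.00258). The call was lost without 6 h replicate 1, at 0.97. The chloroplastic glutamine synthetase Cz12g28130 had 154.4 ± 6.92 FPKM at 6 h, against 263.5 ± 7.02 at 0 h (SD, n = 3 each), a change of -0.46 that was under the limit. The mitochondrial form Cz01g04100 was not called either, at -0.62, but was called lower without 6 h replicate 3, at -1.06.

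The ferredoxin-dependent glutamate synthase Cz10g25220, which passes the nitrogen of glutamine on to glutamate in the chloroplast, was not called at -0.14 (limma adjusted p = 0.521). The NADH-dependent form Cz08g04180 was called lower at -1.67 (limma adjusted p = 0.0382), a call that was lost when any library other than 6 h replicate 3 was left out, at -1.79 to -1.14. The glutamate dehydrogenase Cz06g01130 and the glutamate decarboxylase UNPLg00813 were called lower at -1.10 and -1.42, and the NADP-dependent glutamate dehydrogenase Cz06g31270 was called higher at 1.19 (limma adjusted p = 0.0323). The call of Cz06g31270 was lost when any library other than 6 h replicate 1 was left out, at 0.80 to 1.23, and with FPKM left unscaled both higher calls of these 10 genes were lost, at 0.88 for Cz06g31270 and 0.82 for Cz14g20030.

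**Figure D4:**
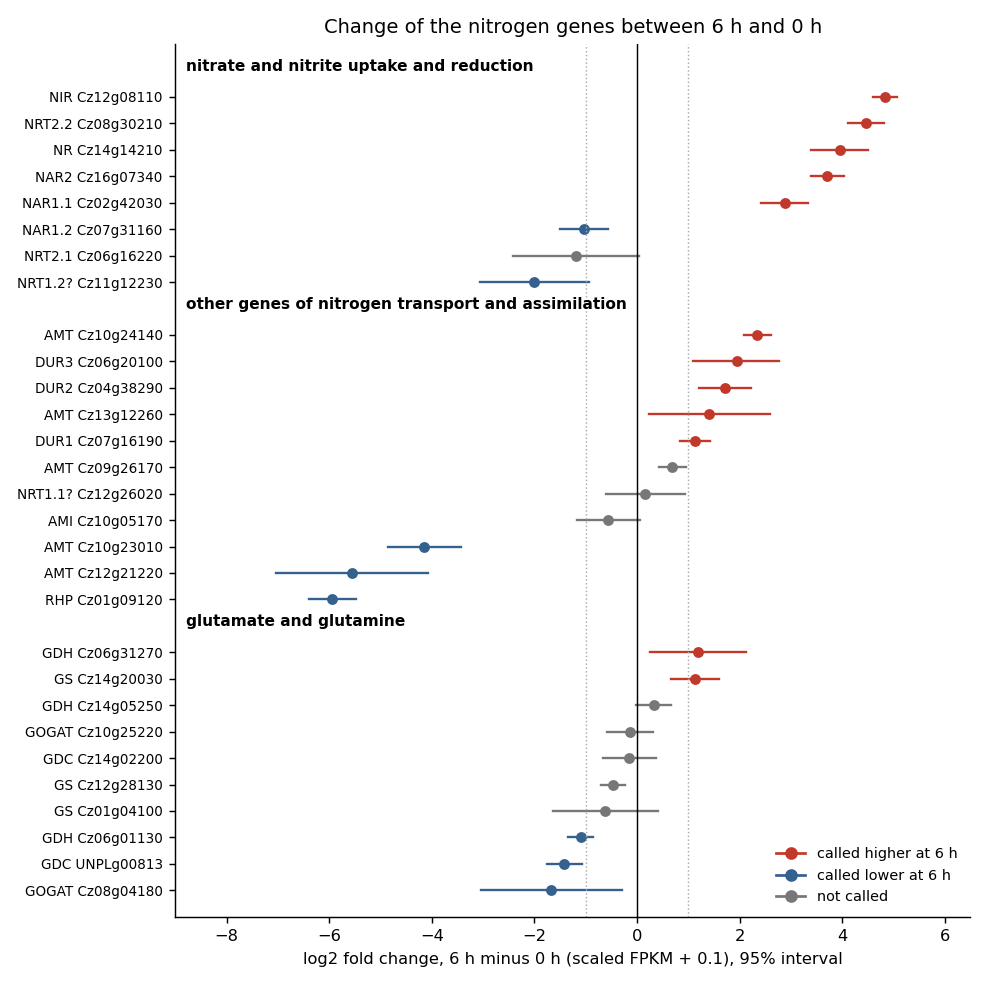
Log2 fold change at 6 h over 0 h with its 95% interval for the 8 nitrate and nitrite genes, the other 11 genes of nitrogen transport and assimilation and the 10 genes of glutamate and glutamine metabolism, coloured by call, with dotted lines at the limit of 1 in either direction. The 5 nitrate and nitrite genes called higher lie between 2.88 and 4.84, above every other gene shown.

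Of the 5 genes annotated with an RWP-RK domain, the family of the Chlamydomonas regulator NIT2, 1 was called lower, 4 were not called and 0 were called higher (limma, 1 of the 5 had an unadjusted p under 0.05). Among all genes tested, 26.6% were called lower and 20% higher. The lower gene, Cz11g26060, had 10.8 ± 1.45 FPKM at 6 h, against 36.5 ± 1.37 at 0 h (SD, n = 3 each), a log2 change of -1.45 (limma adjusted p = 2.66e-04). Another, Cz02g38280, was not called at -0.27 and was called lower without 6 h replicate 3, at -1.20. Which of the 5, if any, takes the role of NIT2 in this alga is not stated in the tables.

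Gene identifiers hold a chromosome number and a running number, and the 2 listed identifiers on either side of each of the 8 genes were read as well, with the order not checked against a genome. Of these 32 genes 29 were tested, with 3 called higher, 7 lower and 19 not called, against 6, 7 and 16 without 6 h replicate 3. For all genes tested the shares were 20% called higher and 26.6% lower. Beside NRT2.2, Cz08g30200 had 146.9, 260.7 and 452.1 FPKM at 6 h, against 24.3, 19.95 and 20.4 FPKM at 0 h, a log2 change of 3.89 (SE 0.38, limma adjusted p = 2.51e-04). The study's automatic annotation calls it a nitrate/nitrite transporter, and NRT2.2 was at 5.01, 3.23 and 2.31 times its FPKM at 6 h, against 2.05, 2.37 and 2.37 times at 0 h. The ratios at both times overlapped, so the 2 adjacent genes were not set apart by how much they changed.

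Beside NIR, Cz12g08100 had 170.4, 226.4 and 331.4 FPKM at 6 h, against 62.9, 53.7 and 58.0 FPKM at 0 h, a log2 change of 2.32 (SE 0.24, limma adjusted p = 2.89e-04). It is annotated there as a ferredoxin-nitrite reductase. NIR was at 5.54, 4.66 and 3.21 times its FPKM at 6 h, against 0.694, 0.838 and 0.743 times at 0 h, so NIR was the lower of both at 0 h and the higher at 6 h. Whether these adjacent models are copies, parts of 1 gene or share reads was not tested, and the values of NIR and NRT2.2 are uncertain to that extent.

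The other 8 neighbours that were called took both directions. The genes Cz16g07320 and Cz16g07330 beside NAR2 were called lower, at -2.12 each, as were Cz12g08090 near NIR at -5.81 and Cz02g41260 near NAR1.1 at -2.70, against the direction of the gene they neighbour. Cz11g12210 near NRT1.2? and Cz07g31180 near NAR1.2 were called lower, at -2.33 and -2.24, in the direction of theirs. Near NRT2.1, Cz06g16200 was called higher at 1.13 and Cz06g16230 lower at -1.46. The call of Cz06g16200 was lost with FPKM left unscaled, at 0.82, that of Cz06g16230 without 0 h replicate 3, 6 h replicate 2 or 6 h replicate 3, at -1.52 to -1.21, and that of Cz02g41260 without any library other than 6 h replicate 3, at -2.96 to -2.01. With a pseudocount of 1 the call of Cz06g16230, a gene at 0.17 to 0.53 FPKM at 6 h, against 0.83 to 1.65 FPKM at 0 h, was lost as well, at -0.61. No neighbour of NR was called, but Cz14g14190 and Cz14g14200 among them were not tested. Without 6 h replicate 3, Cz14g14230 near NR, Cz16g07350 near NAR2 and Cz02g42050 near NAR1.1 were also called higher, at 1.11, 1.05 and 1.13, and Cz07g31140 near NAR1.2 was also called lower, at -1.91. Without 0 h replicate 3, Cz02g42050 was called higher at 1.01.

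**Figure D5:**
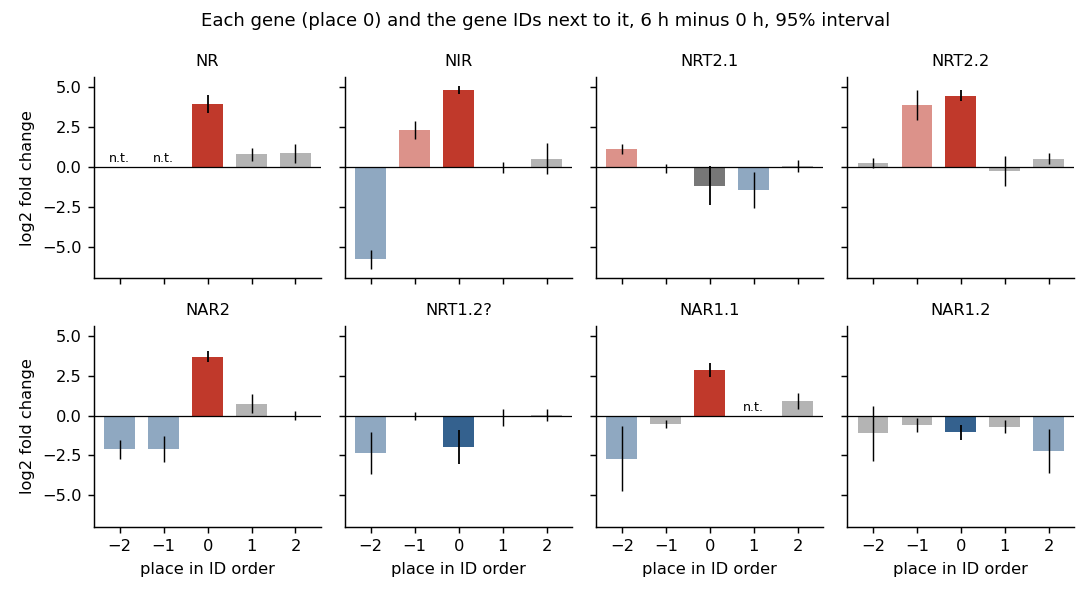
Log2 fold change at 6 h over 0 h with its 95% interval for each of the 8 genes (place 0) and for the 2 listed gene identifiers on either side, with red for genes called higher, blue for lower, grey for not called and n.t. for not tested. The neighbours at place -1 of NRT2.2 (3.89) and of NIR (2.32) rose with them, and the 2 before NAR2 were lower at -2.12.

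To see which named genes moved most like each of the 8, the distance between log2 profiles over the 6 libraries, each relative to its own 0 h mean, was computed against 1299 tested genes that the study's complete gene tables name. NIR was closest to the pyruvate kinase Cz16g00040 (distance 0.11, log2 change 4.81), and NAR1.1 to the acetylornithine aminotransferase Cz04g04150 (0.14, 2.88). NR was closest to a ketoacyl-ACP synthase, UNPLg00257 (0.37, 4.14), NRT2.2 to the biotin carboxylase Cz13g10110 (0.27, 4.34) and NAR2 to the argininosuccinate synthase Cz18g04260 (0.22, 3.69). The next closest gene was often about as near, such as a eukaryotic initiation factor, Cz07g20080, for NAR1.1 (0.15) and the aspartate-semialdehyde dehydrogenase Cz04g20200 for NAR2 (0.24). Among the rest, NRT2.1 was closest to the Dof factor Cz02g28100 (0.23, -1.14), NRT1.2? to the MYB gene Cz06g09120 (0.39, -2.19) and NAR1.2 to the chlorophyllide b reductase Cz09g17200 (0.22, -1.0). In no case was the closest or the next closest gene another of the 8. A distance of this kind sets genes of unlike fold change apart even where they move in the same direction. It is a description of 6 libraries without a test, and whether the 8 genes move together was not tested.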

How the data were processed

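Per the labels and the study's methods, poly-A RNA of 6 cultures was sequenced, and the deposited values are FPKM per gene model. The methods name TopHat and Cufflinks, and the submitters' processing notes name HISAT, Bowtie2 and RSEM. Which of these made the files is not stated, and the genome build is not given in the sources used here. No reads were mapped or counted again, and a gene absent from a library was set to 0.

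FPKM were divided by median-of-ratios factors (0.884 to 0.914 at 6 h, 1.107 to 1.134 at 0 h), and log2 was taken after adding 0.1. Genes whose deposited FPKM averaged 1 or more at 6 h or at 0 h were tested with limma 3.58.1 in R 4.3.3 (lmFit, eBayes with trend), two-sided, with time as the only term. Ratios and sums were compared by exact permutation tests. Since FPKM carry no counts, the reads behind each gene are unknown and no counting interval is given. Libraries listed 14233 to 14433 genes at 6 h and 14682 to 14697 at 0 h.

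The members and gene lists were chosen with earlier results of these data known. Named were the 8 genes, the called genes and pairs of the study's nitrogen, glutamate and RWP-RK lists, the 2 identifiers on each side, and the 2 nearest profiles, of which the closest is printed. The annotations of Cz08g30200, Cz12g08100 and NAR2 as an enzyme come from a table held only in part. The fit was tested on simulated data with the same spread at both times, which does not cover the unequal spread of the real libraries. The alternatives were 3 scalings, 2 pseudocounts, 2 filters, a replicate block, library weights, no trend, the limit inside the test, and each library left out. Genome sequence was not used here.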

Additional observations from a re-analysis of the deposited data

How the results depend on the processing

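Of the 8 genes, NR, NIR, NRT2.2, NAR2 and NAR1.1 were called higher under all 17 alternatives, with log2 changes of 3.51 to 4.16, 4.40 to 4.88, 4.03 to 4.57, 3.27 to 3.79 and 2.44 to 3.07. No gene of the 8 changed sign. The number called lower was 2, and it was 3 without scaling, with TPM, with upper-quartile scaling and with library weights. It was 1 with a pseudocount of 1, 1 with the filter at a mean of 10 (where NAR1.2 was not tested), 0 with the limit inside the test (limma treat, 1 at an unadjusted p under 0.05), and 1 to 2 when 1 library was left out. Without 6 h replicate 3 the 2 were NRT1.2? and NRT2.1. NRT2.1 was also called lower with TPM made from the FPKM (-1.63), upper-quartile scaling (-1.50) and library weights (-1.36), whose estimation did not converge fully.

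Over all genes, 2772 were called higher and 3692 lower, against 1624 and 4738 with TPM, 1925 and 4466 without scaling, 1925 and 4421 with upper-quartile scaling, and 1384 and 2417 with the limit inside the test. Leaving out 1 library gave 2544 to 3242 and 3288 to 4210. The median change of all genes was -0.34 without scaling and -0.47 with TPM, and the causes were not tested.

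Same-numbered libraries did not deviate together (r = -0.30, -0.11 and -0.49). With the replicate block 2696 genes were called higher and 3521 lower, and of the 8 genes 5 and 2. Of the genes named, the block lost the calls of Cz13g12260, Cz08g04180, Cz06g31270, Cz06g16230 and Cz02g41260 (adjusted p = 0.0547, 0.0595, 0.0534, 0.0779 and 0.0548). The paired test of the ratios cannot give a p under 0.25.

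There are 3 libraries a time and no read counts per gene, so small changes of low genes such as NAR1.2 are limited by the spread of the cultures and by the 0.1 added.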
